A study of Homo sapiens with 8 samples.

Results

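Expression of 10 genes of the circadian clock was measured in KYSE850, an established human cell line derived from an esophageal squamous cell carcinoma (ESCC), with and without knockdown of KHSRP. KHSRP (KH-type splicing regulatory protein) binds single-stranded RNA and takes part in microRNA maturation, splicing and mRNA decay. The genes were CRY1, CRY2, CLOCK, PER1, PER2, PER3, NR1D1, NR1D2, DBP and BHLHE40. Every probe whose RefSeq accession belonged to 1 of these genes was taken, which gave 15 of the 42405 probes on the array, and 11 of the 15 were bright enough to be compared. The set was selected on a measured value, because the single CRY1 probe lay above background in control cells and below it after KHSRP siRNA. The CRY1 values are therefore given as a description, with no test.

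Per the labels, 4 arrays held RNA of KYSE850 cells given control siRNA and 4 held RNA of KYSE850 cells given siRNA against KHSRP, 1 RNA sample per array. The labels do not name the KHSRP siRNA that each array received, give no hour of harvest or synchronisation of the cells, and do not say whether the 4 samples of a group came from separate cultures, so p-values measure only the spread between these samples. All 8 come from 1 cell line. Levels are log2 of the Cy3 signal relative to the 75th percentile of all probes on the same array, so that 0 is the signal at that percentile and a difference of 1 is a doubling. A level can be compared between arrays for the same probe, and not between probes.

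The circadian clock is a feedback loop in which the transcription factors CLOCK and BMAL1 bind E-box sequences and switch on the PER and CRY genes, whose proteins return to the nucleus and repress them. A further loop runs through the nuclear receptors NR1D1 and NR1D2 (REV-ERB alpha and beta), which repress BMAL1 through ROR response elements (ROREs). DBP and its relative TEF act on D-box sequences, and BHLHE40 (DEC1) competes for E-boxes. Most cell types carry this machinery, including squamous epithelia.

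Promoters are shown for the 5 members with the most negative difference in mean after KHSRP siRNA, a choice made after the values were seen, because clock factors are known to act through short sequences near the start of transcription. The windows run from 250 bases before to 50 bases after an annotated start, on the strand of the gene, and were taken from RefSeq (GRCh38.p14). Capitals mark matches on either strand to an E-box (CACGTG), an E'-box (CACGTT), a D-box (TTATGTAA or TTACGTAA) or an RORE (TAGGTCA or TGGGTCA). The windows are CRY1 at chr12:107093500-107093799 (minus strand), PER1 at chr17:8152355-8152654 (minus strand), PER2 at chr2:238288561-238288860 (minus strand), DBP at chr19:48637330-48637629 (minus strand) and NR1D2 at chr3:23945871-23946170 (plus strand, the second of its annotated starts, whose other window held no match).
CRY1: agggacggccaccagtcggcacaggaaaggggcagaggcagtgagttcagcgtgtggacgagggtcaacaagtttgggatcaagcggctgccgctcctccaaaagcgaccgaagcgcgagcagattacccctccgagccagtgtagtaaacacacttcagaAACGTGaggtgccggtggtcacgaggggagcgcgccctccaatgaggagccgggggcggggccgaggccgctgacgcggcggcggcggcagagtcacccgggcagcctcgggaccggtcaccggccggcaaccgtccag
PER1: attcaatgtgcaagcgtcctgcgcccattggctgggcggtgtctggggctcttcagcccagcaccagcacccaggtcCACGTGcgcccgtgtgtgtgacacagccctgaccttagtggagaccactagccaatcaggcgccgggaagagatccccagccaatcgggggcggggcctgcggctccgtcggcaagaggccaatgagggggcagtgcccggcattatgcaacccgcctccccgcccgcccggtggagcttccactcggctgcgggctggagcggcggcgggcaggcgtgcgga
PER2: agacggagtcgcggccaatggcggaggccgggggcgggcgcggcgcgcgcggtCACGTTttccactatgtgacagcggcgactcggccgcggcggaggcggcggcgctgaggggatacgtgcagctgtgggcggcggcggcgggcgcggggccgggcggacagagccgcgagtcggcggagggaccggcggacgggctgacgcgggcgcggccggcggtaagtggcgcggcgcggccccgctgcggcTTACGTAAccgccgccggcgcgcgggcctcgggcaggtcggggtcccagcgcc
DBP: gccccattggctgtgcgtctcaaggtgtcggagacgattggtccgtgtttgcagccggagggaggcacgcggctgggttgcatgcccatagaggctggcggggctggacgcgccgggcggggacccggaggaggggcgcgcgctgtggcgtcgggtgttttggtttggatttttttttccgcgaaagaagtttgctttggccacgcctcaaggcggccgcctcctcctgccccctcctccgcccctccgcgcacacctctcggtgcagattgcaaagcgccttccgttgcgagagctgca
NR1D2: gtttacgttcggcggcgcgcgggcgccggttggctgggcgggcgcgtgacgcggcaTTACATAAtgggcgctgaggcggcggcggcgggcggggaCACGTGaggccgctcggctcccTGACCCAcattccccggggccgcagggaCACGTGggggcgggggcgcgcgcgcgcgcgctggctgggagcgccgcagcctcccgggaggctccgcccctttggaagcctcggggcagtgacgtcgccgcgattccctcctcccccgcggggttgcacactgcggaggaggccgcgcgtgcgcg

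The CRY1 window held 1 E'-box, which began 89 bases before the start, and the PER1 window held 1 E-box, 173 bases before it. The PER2 window held an E'-box 197 bases before the start and a D-box 3 bases before it. The NR1D2 window held E-boxes 155 and 105 bases before the start, an RORE at 133 and a D-box at 194 bases before it. Over the 14 windows of the 10 members, an E-box was found in 3 (21.4%), an E'-box in 5 (35.7%), a D-box in 3 (21.4%) and an RORE in 3 (21.4%), and no 2 matches overlapped. Among 35116 promoters of the same length, the shares were 7.26% for the E-box, 5.34% for the E'-box, 1.01% for the D-box and 5.69% for the RORE. The cAMP response element TGACGTCA was found in 1.85% of all promoters and in 0 of the 14 windows. These matches are descriptions of sequence and not of binding. The DBP window held none of them, while CRY2, CLOCK, NR1D1, PER3 and BHLHE40 each had a window with at least 1.

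The knockdown was checked on KHSRP itself. Its brighter probe read 6.03, 5.81, 6.39 and 6.08 in control replicates 1 to 4, and 2.52, 2.58, 2.88 and 2.85 in KHSRP siRNA replicates 1 to 4. The groups did not overlap, and KHSRP was lower by a log2 difference of -3.37 (SE 0.16, limma adjusted p = 5.95e-05, exact two-sided permutation p = 0.0286, the smallest that 4 against 4 arrays allow). Between 45.1% and 49.4% of the probes of an array passed the scanner's test for a signal well above background, and no spot was saturated. Of 18761 tested probes, 5.54% were called, meaning an adjusted p under 0.05, with 3.62% lower and 1.92% higher after KHSRP siRNA, and the median log2 difference over all of them was 0.01. The 6 squamous epithelial markers (KRT5, KRT14, KRT6A, TP63, DSG3 and SFN) were above background on all 8 arrays. Of the fibroblast markers, COL1A2, DCN, LUM and PDGFRA were above background on 0 of 8 arrays and COL1A1 on all 8. The endothelial markers PECAM1, CDH5 and VWF were above background on 0 of 8. Of the leukocyte markers, CD14 was above background on all 8 arrays, and CD3E and 1 of 5 PTPRC probes on some. In such bulk RNA, fewer cells that express a gene and less RNA per cell cannot be told apart.

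The arrays within a group were not alike. Each array number marks 1 control and 1 KHSRP siRNA sample, but the columns of KHSRP siRNA replicates 3 and 4 in the deposited series matrix match the scanner values of each other. With the numbers of the series matrix, the deviations of same-numbered arrays from their group means correlated at 0.52, 0.43, 0.83 and 0.84 over probes. With the numbers of the scanner files they correlated at 0.52, 0.43, -0.67 and -0.64. Replicate numbers in the text are those of the scanner files. Under the series matrix numbers, control replicate 3 goes with KHSRP siRNA replicate 4 and control replicate 4 with KHSRP siRNA replicate 3. The labels do not say that same-numbered arrays are pairs, and this numbering was preferred because of the likeness of these same arrays. Results are given from the fit without pairing, followed by the fit with the series matrix number as a block where that changes the call. P-values with that block are therefore a description and do not support a call.

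CRY1 encodes cryptochrome 1, a repressor of CLOCK and BMAL1 in the feedback loop. Its only probe, A_24_P407235, read -2.03, -2.11, -2.10 and -1.84 in control replicates 1 to 4. In KHSRP siRNA replicates 1 to 4 it read -3.48, -3.97, -3.87 and -4.49. All 4 control arrays and 0 of the 4 KHSRP siRNA arrays had it well above background, and the highest KHSRP siRNA value lay below the lowest control value.

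The group means were -2.02 ± 0.13 (SD, n = 4) and -3.95 ± 0.42 (SD, n = 4), a difference of -1.94. Because the probe was not well above background after KHSRP siRNA, the size of the fall is uncertain. An estimate with a floor was 3.36-fold lower, which is not a lower limit. For this estimate, each KHSRP siRNA array kept its measured level or, if higher, the dimmest level it still detected well above background. On KHSRP siRNA replicates 1 to 3 that was the measured level itself, although the probe was not detected there. The 4 paired differences were -1.45, -1.87, -2.39 and -2.03. Normexp background correction with an offset of 50, which raises the floor under dim probes, left a difference of -0.26, while the difference lay between -2.09 and -1.76 under the other 18 alternatives that kept the probe. CRY1 was not well above background on any KHSRP siRNA array, which is also the rule that chose the set. Just outside that rule lay the dimmer NR1D2 probe A_33_P3409124, detected in every control sample and in 2 of 4 KHSRP siRNA samples.

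CRY2, the paralogue of CRY1 and a repressor in the same complex, stayed above background on all 8 arrays. Its probe A_23_P127394 read 0.35, 0.71, 0.21 and 0.82 in control replicates 1 to 4 and 0.16, 0.15, 0.77 and 0.001 in KHSRP siRNA replicates 1 to 4. The groups overlapped, and the difference of -0.25 (95% interval -0.72 to 0.23) did not pass the test (limma adjusted p = 0.607). Whether CRY1 and CRY2 differed in their response was not tested.

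**Figure D1:**
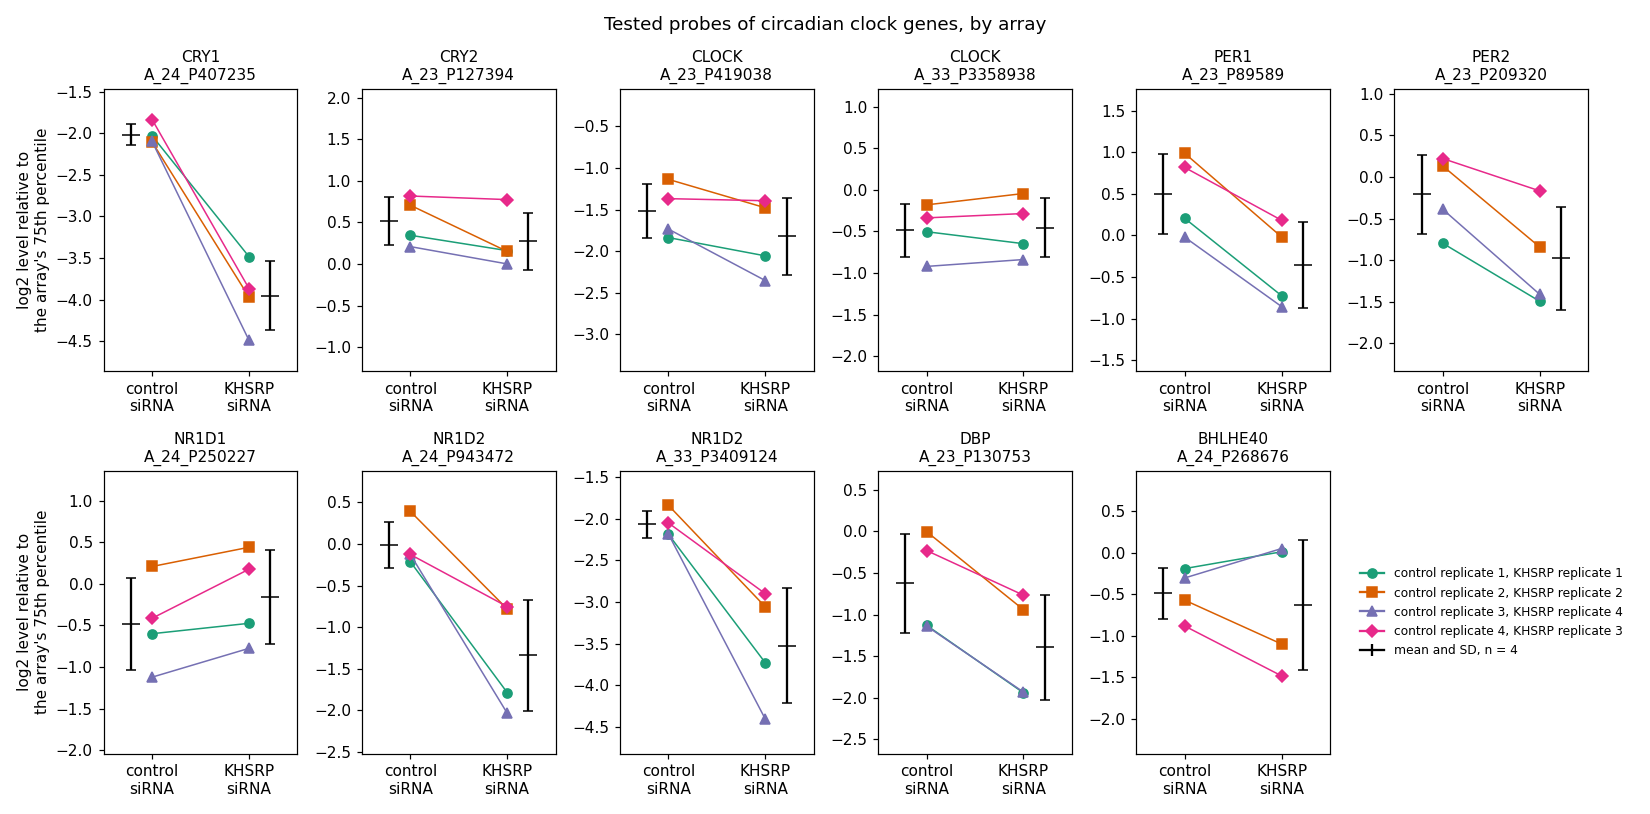
Log2 level relative to the 75th percentile of the array for the 11 tested probes, in control siRNA and KHSRP siRNA arrays. Lines join the arrays that share a series matrix number, black bars give mean and SD (n = 4), and each panel spans the same range of log2 units about its own centre. CRY1 and both NR1D2 probes show no overlap between the groups. PER1, PER2, DBP, CRY2 and CLOCK probe A_23_P419038 fall along every line although their groups overlap, while NR1D1 rises along every line. The lines follow a numbering that was preferred because of the likeness of these same arrays. The share of all tested probes that move one way along every line was not counted.

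NR1D2, the receptor REV-ERB beta, was the only one of the other 9 members that was called. Its brighter probe A_24_P943472 read -0.21, 0.39, -0.12 and -0.12 in control replicates 1 to 4. In KHSRP siRNA replicates 1 to 4 it read -1.78, -0.78, -0.75 and -2.03. All KHSRP siRNA values lay below all control values, and replicates 1 and 4 were lower than replicates 2 and 3.

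The difference for this probe was -1.32 (SE 0.32), which is 40.0% of the control level (limma adjusted p = 0.0494). The dimmer probe A_33_P3409124 read -2.19, -1.84, -2.18 and -2.05 in control replicates 1 to 4 and -3.73, -3.06, -2.90 and -4.41 in KHSRP siRNA replicates 1 to 4. It was detected in 2 of 4 KHSRP siRNA samples and entered the comparison only through the control group, so its difference in mean of -1.46 is a description and does not support the call. Its groups did not overlap, and replicates 1 and 4 were again lowest. The remaining probe, A_33_P3270429, matched to another transcript of the gene, was above background on 0 of 8 arrays.

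The call for the brighter probe was marginal. It held in 7 of 20 alternatives. Among these were the series matrix block, which does not support a call, and the mean over tested probes, which takes in the dimmer probe. The authors' series matrix values, also among them, come from the same arrays. Of the 8 fits that left out 1 array, the brighter probe was called only without KHSRP siRNA replicate 3 (limma adjusted p = 0.0407). Adjusted p reached 0.134 when 1 of the other 7 arrays was left out. Normexp background correction reduced the difference to -0.74.

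NR1D1, the receptor REV-ERB alpha, had no called difference without pairing. Its probe A_24_P250227 read -0.60, 0.21, -1.12 and -0.41 in control replicates 1 to 4 and -0.47, 0.44, 0.18 and -0.78 in KHSRP siRNA replicates 1 to 4. The groups overlapped, and the difference of 0.32 (SE 0.34) did not pass the test (limma adjusted p = 0.702). With the series matrix number as a block the adjusted p was 0.0496, with NR1D1 higher after KHSRP siRNA. Whether the 2 receptors differed in their response was not tested.

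The period genes encode the partners of the cryptochromes in the repressor complex. PER1, probe A_23_P89589, read 0.20, 0.99, -0.02 and 0.82 in control replicates 1 to 4, and -0.73, -0.02, 0.18 and -0.86 in KHSRP siRNA replicates 1 to 4. The groups overlapped, since control replicate 3 lay below the highest KHSRP siRNA array. The difference was -0.85 (SE 0.31) and did not pass without pairing (limma adjusted p = 0.166). With the series matrix number as a block PER1 was lower at an adjusted p of 0.00276, and every pair fell, with the smallest difference at -0.64.

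The brighter PER2 probe, A_23_P209320, read -0.80, 0.13, -0.39 and 0.22 in control replicates 1 to 4 and -1.49, -0.84, -0.17 and -1.41 in KHSRP siRNA replicates 1 to 4. KHSRP siRNA replicate 3 lay within the control values, and the difference of -0.77 (SE 0.34) did not pass without pairing (limma adjusted p = 0.256). Under the block the adjusted p was 0.00887. The dimmer PER2 probe A_23_P411162 was detected in 2 of 4 control samples and in 0 of 4 KHSRP siRNA samples and was not tested. Both PER3 probes were above background on 0 of 8 arrays, so no direction is given for PER3.

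DBP, a transcription factor whose gene is driven by CLOCK and BMAL1 and which acts on D-boxes, had a within-group SD of 0.61, against a median of 0.26 over all tested probes. Its probe A_23_P130753 read -1.13, -0.002, -1.14 and -0.23 in control replicates 1 to 4, and -1.94, -0.94, -0.77 and -1.93 in KHSRP siRNA replicates 1 to 4. In both groups 2 arrays were high and 2 were low, and the low control arrays overlapped the high KHSRP siRNA arrays. The difference was -0.77 (SE 0.37, limma adjusted p = 0.312), and with the series matrix number as a block the adjusted p was 0.00362. The paired differences were -0.81, -0.94, -0.79 and -0.54.

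CLOCK itself, the activating factor, showed no called difference on either probe. The brighter probe A_33_P3358938 read -0.50, -0.18, -0.92 and -0.34 in control replicates 1 to 4 and -0.65, -0.04, -0.28 and -0.84 in KHSRP siRNA replicates 1 to 4, a difference of 0.03 (95% interval -0.47 to 0.53, limma adjusted p = 0.968). The dimmer probe A_23_P419038 read -1.84, -1.14, -1.74 and -1.37, against -2.06, -1.48, -1.39 and -2.35, a difference of -0.30 (95% interval -0.88 to 0.28, limma adjusted p = 0.607). The groups overlapped on both probes.

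BHLHE40, the E-box repressor DEC1, read -0.19, -0.57, -0.30 and -0.88 in control replicates 1 to 4 on probe A_24_P268676. In KHSRP siRNA replicates 1 to 4 it read 0.01, -1.10, -1.48 and 0.05. The KHSRP siRNA arrays lay on both sides of the control arrays, and the difference of -0.14 (95% interval -0.97 to 0.68) did not pass the test (limma adjusted p = 0.903).

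Counted by gene, with the brightest tested probe standing for each, 8 of the 9 members other than CRY1 were tested and 1 was called, NR1D2, which was lower. Over all tested probes 5.54% were called. Of the 8, 6 had lower and 2 higher means after KHSRP siRNA, their median log2 difference was -0.51 against 0.01 over all tested probes, and 2 had an unadjusted p under 0.05. The share of all tested probes with an unadjusted p under 0.05 was not counted. Here and below, such counts are therefore not read as an excess. In 1 of the 8 the groups did not overlap with KHSRP siRNA lower, which was the case for 8.69% of all tested probes, and in 0 of the 8 with KHSRP siRNA higher, against 6.09% of all.

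With the series matrix number as a block, 4 of the 8 were called lower (PER1, PER2, NR1D2 and DBP) and 1 higher (NR1D1). That fit called 15.3% of all tested probes lower and 14.8% higher. With the scanner file number as a block limma called 0 of the 8, and 2 had an unadjusted p under 0.05. Limma adjusted p with that block was 0.280 for PER1, 0.316 for PER2, 0.0842 for NR1D2, 0.356 for DBP and 0.667 for NR1D1. The members were selected with results of these arrays known, so these counts do not support anything about the clock genes as a set.

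**Figure D2:**
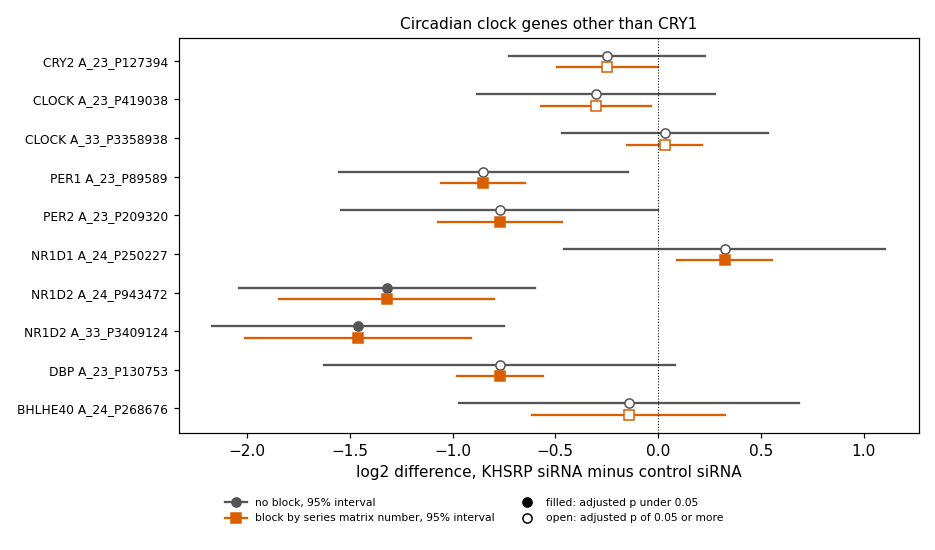
Log2 difference (KHSRP siRNA minus control siRNA, 4 arrays each) of the 10 tested probes of members other than CRY1, with 95% intervals from the fit without a block (grey) and with the series matrix number as a block (orange); filled symbols mark an adjusted p under 0.05. Only the NR1D2 probes are filled in grey, of which A_33_P3409124 entered the comparison through the control group alone, and PER1, PER2, NR1D1, DBP and both NR1D2 probes are filled in orange.

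The other genes of the clock were taken from 3 lists, of which 37 genes are reported: further core clock factors, proteins that modify or degrade clock proteins, and outputs of the clock. Of these 37, 30 were tested, 4 were too dim (RORA, CIART, HLF and USP2), and for 3 (CSNK1E, CSNK1A1 and FBXL21P) no probe was matched by accession. Each gene was counted by its brightest tested probe. Of the 30, limma called 0 without pairing, and 5 had an unadjusted p under 0.05, a count with no share over all tested probes to set beside it. Among these 5 were TEF and PRKAA2, which entered the comparison through the control group alone and are descriptions. Their median log2 difference was 0.005, with 15 higher and 15 lower means.

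Among the core factors, 8 of 11 genes were tested and 0 were called by limma. An unadjusted p under 0.05 was found for 2 (TEF and BHLHE41). TEF, the D-box factor related to DBP, is given as a description, because it was below background on 1 KHSRP siRNA array and entered the comparison only through the control group. Its probe A_24_P151582 read -1.77, -0.53, -1.75 and -0.95 in control replicates 1 to 4, and -3.27, -1.88, -1.92 and -3.78 in KHSRP siRNA replicates 1 to 4. The groups did not overlap, and the means differed by -1.47.

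BHLHE41 (DEC2), the paralogue of BHLHE40, differed by -0.56 (SE 0.22, limma adjusted p = 0.201, or 0.0227 with the block). BMAL1, the partner of CLOCK, differed by 0.15 (limma adjusted p = 0.817) and its paralogue BMAL2 by 0.06 (limma adjusted p = 0.944). NPAS2, which can stand in for CLOCK, differed by 0.23 (limma adjusted p = 0.726, or 0.0381 with the block). RORA, an activator that opposes NR1D1 and NR1D2 at ROREs, was above background on 2 of 4 arrays of each group.

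Of 19 modifiers of clock proteins, 15 were tested and by their brightest probes limma called 0. An unadjusted p under 0.05 was found for 2 (CSNK1D and PRKAA2). A dimmer probe of PRKAA1, A_33_P3257187, was called higher. PRKAA2, a catalytic subunit of AMP-activated kinase, was below background on 1 of 4 KHSRP siRNA arrays and also entered through the control group alone, and its means differed by -0.92. CSNK1D, a kinase of the PER proteins, differed by -0.46 (SE 0.14, limma adjusted p = 0.0940, or 0.00763 with the block). Of the 10 output genes 8 were tested and 0 were called by limma, with 2 at an unadjusted p under 0.05 (TEF and PPARA). PPARA, a nuclear receptor of lipid metabolism, differed by 0.52 (SE 0.15, limma adjusted p = 0.0848, or 0.0338 with the block). With the series matrix block 6 of the 30 genes were called, NPAS2 and PPARA higher and BHLHE41, TEF, CSNK1D and PRKAA2 lower, where that fit called 14.8% of all tested probes higher and 15.3% lower. TEF and PRKAA2 are among these 6 although they entered through the control group alone.

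**Figure D3:**
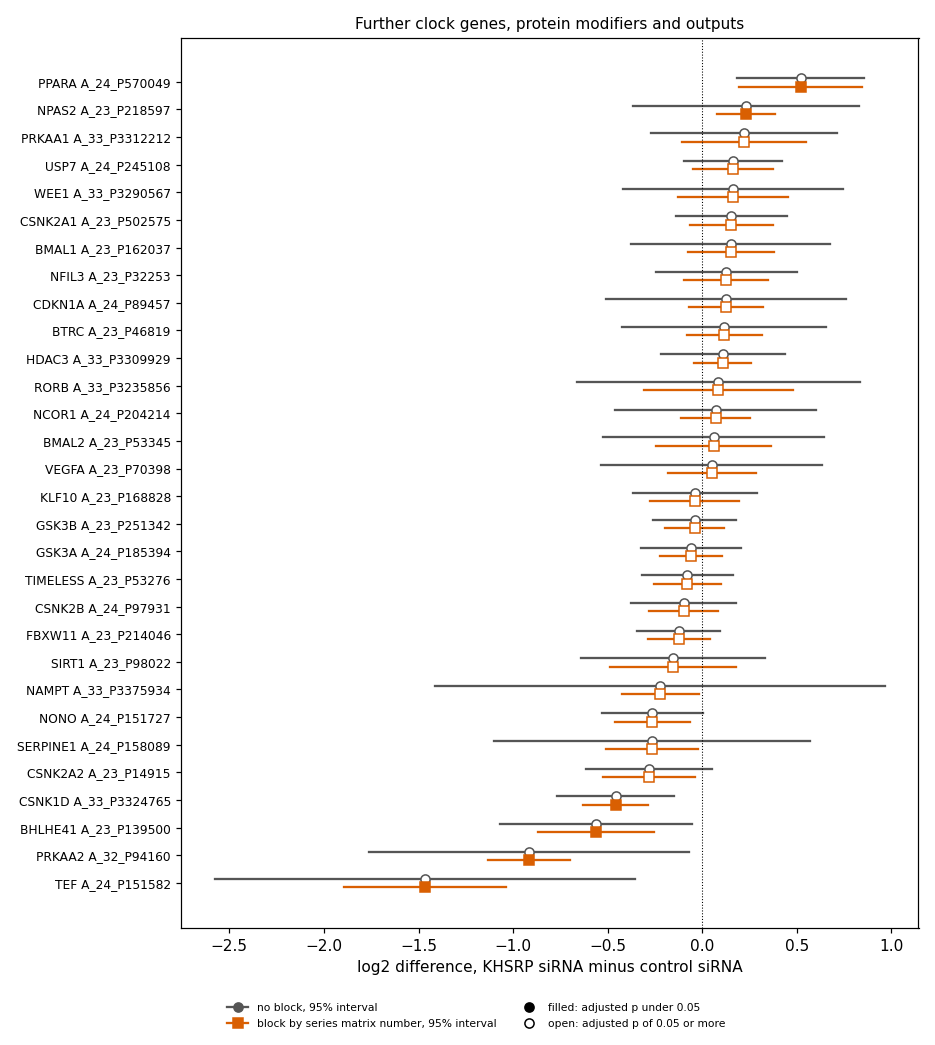
Log2 difference (KHSRP siRNA minus control siRNA, 4 arrays each) of 30 further clock genes, 1 probe per gene, with 95% intervals without a block (grey) and with the series matrix number as a block (orange); filled symbols mark an adjusted p under 0.05. No gene is filled in grey, and 6 are filled in orange, of which TEF and PRKAA2 entered the comparison through the control group alone.

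PER1 and several of its relatives also respond to glucocorticoids and to cAMP signalling, so genes of those responses were read alongside. Of 6 glucocorticoid-responsive genes 5 were tested, and DUSP1, a phosphatase of MAP kinases, was called, where 5.54% of all tested probes were. It read -0.51, -0.46, -0.47 and -0.34 in control replicates 1 to 4 and -0.07, 0.08, -0.005 and 0.19 in KHSRP siRNA replicates 1 to 4. The groups did not overlap, and DUSP1 was higher by 0.49 (SE 0.11, limma adjusted p = 0.0340), although it was called in 0 of the 8 fits that left out 1 array (adjusted p 0.0593 to 0.111). SGK1, a kinase induced by glucocorticoids, differed by 0.55 (SE 0.44, limma adjusted p = 0.580). With the series matrix block DUSP1 was again called higher (limma adjusted p = 0.00887). TSC22D3 and KLF9, which are both induced by glucocorticoids, were called lower with that block. Their differences were -0.37 (limma adjusted p = 0.0186) and -0.46 (limma adjusted p = 0.0137). That fit called 14.8% of all tested probes higher and 15.3% lower. Of 6 CREB-responsive genes 4 were tested and by their brightest probes limma called 0, with 1 at an unadjusted p under 0.05, while a dimmer CREM probe, A_24_P360763, was called higher. In that list the kinase SIK1 differed by 0.56 (limma adjusted p = 0.227, or 0.0160 with the block) and FOS by -0.27 (limma adjusted p = 0.404).

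Within each group, several of the member probes shared a profile over the array numbers, which was noticed in the data and is given without a test. Series matrix numbers 2 and 4 (control replicates 2 and 4, KHSRP siRNA replicates 2 and 3) were both higher than numbers 1 and 3, in both groups, for 7 of the 11 tested member probes. These were both CLOCK probes, PER1, PER2, NR1D1, the dimmer NR1D2 probe and DBP, and 24.6% of all tested probes behaved that way. BHLHE40 showed the opposite order, as did 17.3% of all tested probes. CRY1, CRY2 and the brighter NR1D2 probe met neither order in full. For CRY2, numbers 2 and 4 still exceeded numbers 1 and 3 by a mean of 0.485 in control cells and 0.382 in KHSRP siRNA cells. For the brighter NR1D2 probe these distances were 0.302 and 1.143, and for CRY1 they were 0.094 and 0.069. The other clock genes did not share one order. Of 8 tested probes of further core factors 3 were higher on numbers 2 and 4, 2 lower and 3 neither, of 10 probes of outputs 2 were higher, 4 lower and 4 neither, and of 20 probes of modifiers 5 were higher, 6 lower and 9 neither.

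The distance between the pairs of arrays can be set beside the differences between the siRNAs. For DBP, numbers 2 and 4 exceeded numbers 1 and 3 by a mean of 1.02 in control cells and 1.08 in KHSRP siRNA cells. For PER1 the distances were 0.81 and 0.87. BMAL1 showed the opposite order, with -0.39 and -0.59, as did 17.3% of all tested probes. Whether its order is linked to NR1D1 or NR1D2, which are known to repress it, was not tested.

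Markers of squamous epithelium moved with this profile in the opposite direction, 6 of 6 being lower on numbers 2 and 4 in both groups. KRT5, a keratin of basal cells, read 5.84, 4.30, 5.84 and 3.11 in control replicates 1 to 4 and 5.92, 4.46, 2.92 and 5.98 in KHSRP siRNA replicates 1 to 4. Both slides of the experiment held arrays of the high and of the low kind. The part of these markers in the clock gene values was not tested.

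**Figure D4:**
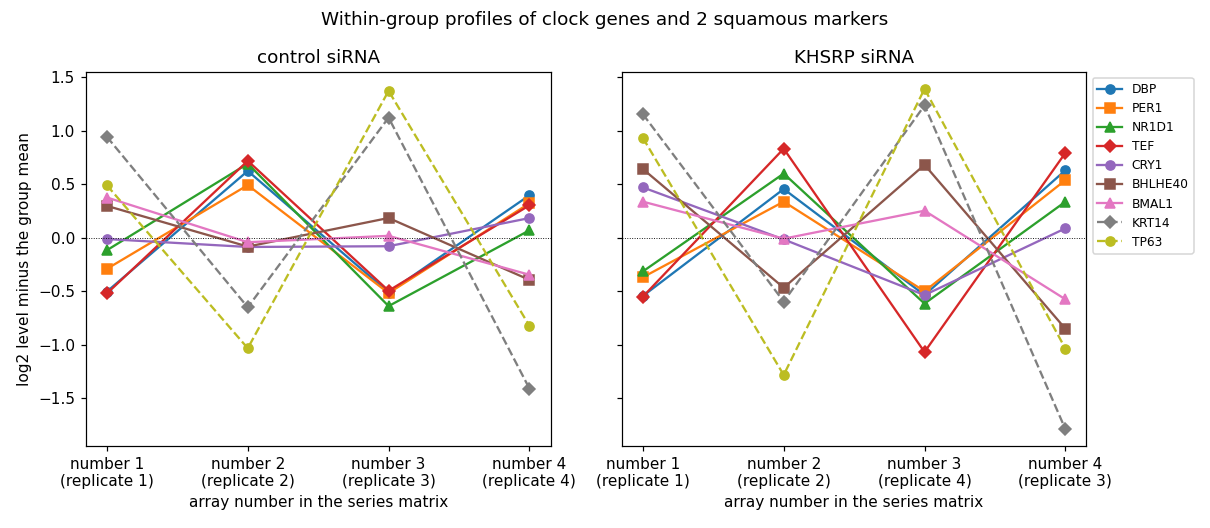
Log2 level minus the mean of the group, over the 4 array numbers of the series matrix, for 7 clock genes (solid) and the squamous markers KRT14 and TP63 (dashed), in control siRNA (left) and KHSRP siRNA (right); the genes shown were chosen after their values were seen. DBP, PER1, NR1D1 and TEF are high on numbers 2 and 4 in both groups, where KRT14 and TP63 are low, and CRY1 follows neither.

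Likeness to CRY1 in the deviations from the group means over the 8 arrays was ranked among tested probes that had a symbol and were not members. The highest were GPBP1 (Pearson r = 0.98), SNORA53 (r = 0.95), DCUN1D4 (r = 0.95), TAPBP (r = 0.95) and HECW2 (r = 0.94). They were picked as the top of that ranking, and 4 of the 8 CRY1 values behind them lay below background.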

How the data were processed

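RNA of 4 control siRNA and 4 KHSRP siRNA samples was labelled with Cy3 and hybridised to 8 one-colour Agilent arrays. The authors scanned the arrays and, per the file headers, used Agilent Feature Extraction 11.5.1.1 for spot extraction (the submitters' processing notes name 12.6), so the deposited scanner values are linear fluorescence intensity, background-subtracted and detrended but not scaled between arrays. The deposited series matrix holds the authors' log2 values, attributed to GeneSpring, and served as an alternative. Its scale matched the scanner values shifted to the 75th percentile.

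Control and outlier spots were left out. The log2 signals of a probe's spots were averaged and set relative to the 75th percentile of non-control probes. Testing required a probe to be well above background, in at least 0.5 of its spots, on all 4 arrays of 1 group. Probes were named through RefSeq accessions (GRCh38.p14), which gave 27241 of 42405 (64.2%) a symbol. Differences between groups were tested two-sided, with no block, by lmFit and eBayes of limma 3.58.1 (R 4.3.3), and p-values were adjusted by Benjamini-Hochberg over 18761 probes. The fit was tested on simulated data. Figures and counts used Python 3.11.15.

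The members and lists were chosen with earlier results of these data known. Of the lists, 3 genes are not reported here, and the counts leave them out. The text names all members, every called gene of a further list and the 2 genes with the largest difference per list. NPAS2, BMAL1, BMAL2, RORA, TSC22D3 and KLF9 were named after their values were seen. The series matrix numbers were taken to pair arrays because all 4 correlations exceeded 0.1. Alternatives covered the scaling, the background correction (on median spot brightness), the series matrix, the filter, the slide or number as a block, the variance model, the mean over probes, and each array left out. The number of arrays limits the precision.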

Additional observations from a re-analysis of the deposited data

Results flagged for a closer look

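In 1 of 42 groups of 4 arrays examined over the named probes, an array stood apart from the other 3. For NR1D2 probe A_24_P943472, control replicate 2 read 0.39 and the nearest control array -0.12, a gap of 0.855 of the range of the group. Chance alone sets apart about 1 in 20 such groups. Without this array the difference was -1.18 (limma adjusted p = 0.134), so the call for the probe was lost.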

How the results depend on the processing

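KHSRP was lower in all 20 alternatives, with differences between -3.46 and -3.02. The count of members other than CRY1 that limma called, 1 without a block, was 0 under quantile normalization, median scaling and normexp background correction (3 with an unadjusted p under 0.05 in each), and 0 without a filter, with the slide as a block and with the scanner file number as a replicate block (2 in each). It was 5 with the series matrix number as a replicate block. Leaving out 1 array gave counts of 0 to 1, with 1 to 5 members at an unadjusted p under 0.05. The share of all tested probes at that unadjusted p was not counted under any setting. The count of reported further clock genes called by limma was 0 without a block. There, 5 had an unadjusted p under 0.05, TEF and PRKAA2 among them. The count was 1 with the slide as a block (CSNK1D), 6 with the series matrix replicate block, and 0 in the other 18 alternatives. The brighter CLOCK probe changed sign to -0.042 under median scaling, and ranged from -0.11 to 0.16 with 1 array left out. The mean over both CLOCK probes, which is not a value of the brighter probe alone, differed by -0.13. BHLHE40 ranged from -0.37 to 0.14 with 1 array left out, changing sign without KHSRP siRNA replicates 2 or 3. The cause of these changes was not tested. Probes near background limit what can be said of CRY1, PER3 and the dimmer NR1D2 and PER2 probes.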

Other observations

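In 2 genes the dimmer probe was called and the brighter one was not, and these were picked after their values were seen. For PRKAA1, the other catalytic subunit of AMP-activated kinase, probe A_33_P3257187 was higher after KHSRP siRNA by 0.73 (limma adjusted p = 0.0365), while the brighter A_33_P3312212 differed by 0.22 (limma adjusted p = 0.673). For CREM, a factor of cAMP signalling, probe A_24_P360763 was higher by 0.71 (limma adjusted p = 0.0134), while the brighter A_23_P201979 differed by 0.16 (limma adjusted p = 0.433).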
